A study of Mus musculus with 6 samples.

Results

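Efferocytosis is the uptake of dying cells by other cells, and 10 genes of its receptors and bridging proteins were followed here in mouse brain lesions: the receptors Axl, Mertk, Tyro3, Stab1, Megf10, Timd4 and Lrp1, and the bridging proteins Gas6, Pros1 and Mfge8. The genes were taken by name, with earlier results of these data known, and are 10 of the 32285 genes in the count matrices. Their UMIs (unique molecular identifiers, each standing for 1 captured RNA molecule) were summed over microglia-like, macrophage-like, astrocyte-like and fibroblast-like nuclei of each library, named from marker genes. Levels are given as CPM, the gene's UMIs relative to all UMIs of that class in that library in the usual CPM scaling, with mitochondrial genes left out.

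The 6 libraries were single-nucleus RNA libraries of dissected photothrombotic lesions, in which light and a dye close the cortical vessels, taken 7 or 21 days after the injury (dpi). At each time point, 1 library came from wild-type mice (Ctrl), 1 from Col1a2(creER); Tgfbr2(flox) mice (Tgfbr2-cKO) and 1 from wild-type mice given ADWA11, an antibody that blocks the TGFβ-activating integrin αvβ8. In the Tgfbr2-cKO mice, tamoxifen removes the TGFβ receptor gene Tgfbr2 from cells that express Col1a2, mostly fibroblasts. The labels give the treatment of Ctrl and Tgfbr2-cKO as NA. Each library pooled lesions of 1 male and 1 female mouse. There was therefore 1 library per group and no test between groups, and nothing below carries a p-value. The intervals are exact Poisson or conditional binomial 95% intervals and cover counting error only.

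Axl, Mertk and Tyro3 are the TAM receptor tyrosine kinases. They do not bind a dying cell directly: Gas6 and protein S (Pros1) attach to exposed phosphatidylserine with one end and to a TAM receptor with the other. Mfge8 is a bridge of the same kind that joins phosphatidylserine to integrins. Stab1 and Timd4 bind phosphatidylserine themselves, Lrp1 is a large scavenger receptor that takes part in uptake through calreticulin, and Megf10 is an engulfment receptor best known in astrocytes. In the brain, microglia use Mertk and Axl, and astrocytes use Mertk and Megf10, to clear dying cells and synapses.

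The promoters are shown because the study alters TGFβ signalling, whose Smad factors bind short boxes in DNA. RefSeq (GRCm38.p6) gave the 250 bases before the start site for 9 of the 10 members. Capitals mark each Smad box, CAGAC or GTCTG on either strand. Axl, Mertk and Stab1, receptors carried mostly by myeloid nuclei, are given 5′ to 3′, from chr7:25788734-25788983 (minus strand), chr2:128698665-128698914 (plus strand) and chr14:31168642-31168891 (minus strand).
Axl: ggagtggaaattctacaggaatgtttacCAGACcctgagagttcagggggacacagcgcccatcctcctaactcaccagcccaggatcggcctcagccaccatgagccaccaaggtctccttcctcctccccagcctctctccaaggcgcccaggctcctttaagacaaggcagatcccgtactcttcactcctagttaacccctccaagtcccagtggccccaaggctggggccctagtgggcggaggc
Mertk: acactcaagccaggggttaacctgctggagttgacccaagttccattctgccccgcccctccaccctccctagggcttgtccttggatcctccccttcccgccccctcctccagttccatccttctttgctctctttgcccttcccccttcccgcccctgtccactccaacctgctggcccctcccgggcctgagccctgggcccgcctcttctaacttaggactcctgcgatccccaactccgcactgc
Stab1: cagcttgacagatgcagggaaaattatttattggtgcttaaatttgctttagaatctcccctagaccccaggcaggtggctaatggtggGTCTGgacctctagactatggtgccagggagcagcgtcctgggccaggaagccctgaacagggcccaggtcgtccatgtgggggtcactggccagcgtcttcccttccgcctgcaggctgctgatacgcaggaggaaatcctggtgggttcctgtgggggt
The box was found in 4 of the 9 promoters, those of Axl, Gas6, Stab1 and Timd4, and in 42.2% of 32851 promoters of the same length. The PU.1 core GAGGAAGT, the site letters of a myeloid factor, was in none of the 9, on either strand, and in 2.44% of all promoters. These matches describe the letters only.

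The libraries held 7205 to 14246 barcodes with 64798965 to 140310354 UMIs, and 6583 to 13083 nuclei per library passed the filters. Pairs of libraries shared 21 to 61 barcodes. Neurons made up 57.2% and 14.6% of nuclei in the Tgfbr2-cKO libraries at 7 and 21 dpi, against at most 1.87% in the other libraries. Summed neuron markers in microglia-like nuclei stood at 320 and 98.1 CPM in those 2 libraries and at most at 20.3 CPM elsewhere, and their part in the results was not tested. The ADWA11 libraries held 69 microglia-like nuclei at 7 dpi and 23 at 21 dpi, against 1132 to 1681 in the other libraries. These numbers depend on the naming, since an unnamed myeloid sub-cluster led by Cfap299 held 2569 nuclei in ADWA11 and 66 in Ctrl at 7 dpi. The summed microglia markers of those 69 and 23 nuclei were 1164 and 436 CPM, below the 2446 to 3706 CPM of the other libraries, so the label rests on weak marker levels there. Both values lie within the 433 to 1589 CPM of macrophage-like nuclei, so this sum does not set them apart from that class. Macrophage-like nuclei numbered 271, 1392 and 46 at 7 dpi and 502, 4065 and 146 at 21 dpi in Ctrl, ADWA11 and Tgfbr2-cKO. They were mostly border macrophage-like in Ctrl at 7 dpi and mostly Fabp4 Cd5l macrophage-like in ADWA11 at 21 dpi. Tgfbr2 itself measured 321, 251 and 248 CPM in fibroblast-like nuclei at 7 dpi and 232, 197 and 226 CPM at 21 dpi, in the order Ctrl, ADWA11, Tgfbr2-cKO; tags at the 3′ end can lie outside the deleted part, so this checks little.

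T cells are not phagocytes, and the level of each member in T cell-like nuclei of the same library was set beside its level in the 4 classes, since free RNA reaches nuclei of every type. Mertk and Stab1 were well above it in microglia-like and macrophage-like nuclei in 6 of 6 libraries, as were Gas6 and Pros1. Lrp1 was above it in all 4 classes in 6 of 6 libraries. In contrast, Stab1 in astrocyte-like and fibroblast-like nuclei was below the T cell-like level in 5 of 6 libraries and above it in 0, and Mertk in fibroblast-like nuclei likewise. The T cell-like class of Tgfbr2-cKO at 7 dpi had 28 nuclei, so it gives a weak comparison there. T cell-like nuclei also held fewer UMIs, with medians of 2366 to 3302 per library. Astrocyte-like nuclei had medians of 5237 to 9126 and fibroblast-like nuclei of 5874 to 9779. A given amount of free RNA makes a larger CPM in nuclei with fewer UMIs, and this was not corrected for.

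A member was called past 2-fold where its log2 ratio was at least 1 in size, its interval did not hold 0 and both libraries together had at least 20 UMIs. Of the 40 pairs of member and class, 13 were past 2-fold between Ctrl at 21 and 7 dpi, 7 higher and 6 lower. By class, these were 2 of 7 members tested in microglia-like nuclei (12.8% of all genes tested were past 2-fold), 3 of 8 in macrophage-like nuclei (10.1% of all genes), 4 of 9 in astrocyte-like nuclei (14.9%) and 4 of 9 in fibroblast-like nuclei (19.7%). Between Tgfbr2-cKO and Ctrl, 7 pairs were past 2-fold at 7 dpi and 3 at 21 dpi. At 7 dpi they were 1 of 8 in microglia-like (13.9% of all genes), 1 of 6 in macrophage-like (8.63%), 4 of 9 in astrocyte-like (17.5%) and 1 of 9 in fibroblast-like nuclei (9.43%). At 21 dpi they were 1 of 8 in microglia-like (8.94%), 0 of 8 in macrophage-like (6.94%), 1 of 9 in astrocyte-like (11.2%) and 1 of 9 in fibroblast-like nuclei (10.6%). With ADWA11, 5 pairs were past 2-fold at 7 dpi and 4 at 21 dpi. At 7 dpi they were 1 of 7 in microglia-like (12% of all genes), 3 of 8 in macrophage-like (7.01%), 0 of 8 in astrocyte-like (6.51%) and 1 of 9 in fibroblast-like nuclei (9.17%). At 21 dpi they were 2 of 7 in microglia-like (10.5%), 1 of 8 in macrophage-like (6.92%), 0 of 9 in astrocyte-like (5%) and 1 of 9 in fibroblast-like nuclei (7.49%). Counts of 1 in 6 to 9 members stand close to these shares of all genes. Counts of 3 or 4 stand above them, but several of those members were at or below the T cell-like level or at few UMIs, as given for each.

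**Figure D1:**
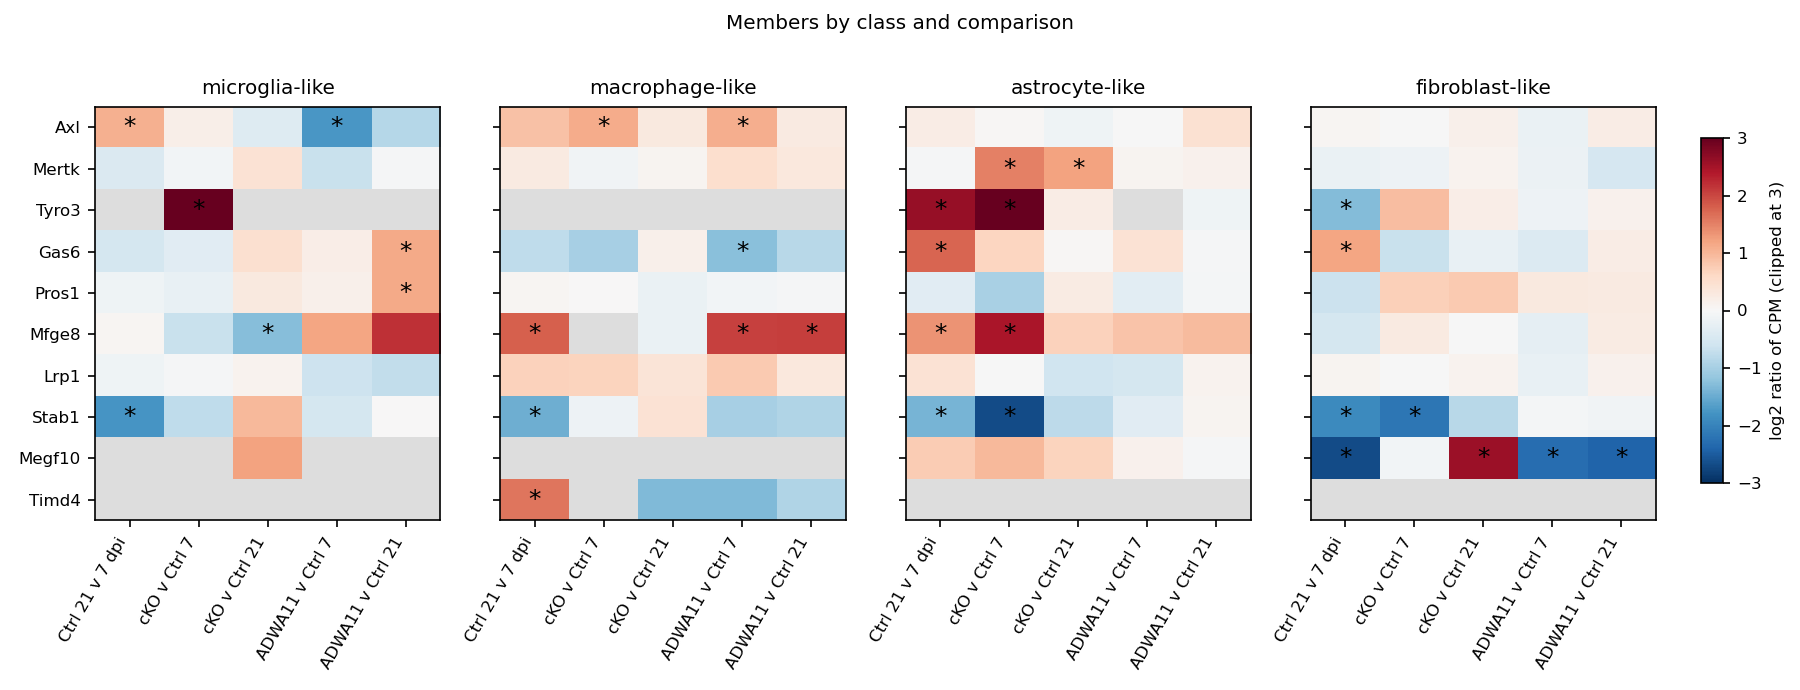
Log2 ratio of CPM for the 10 members (rows) in 5 comparisons and 4 classes (columns), with colour from lower (blue) to higher (red), shown up to a size of 3. Stars mark members past 2-fold and grey cells have fewer than 20 UMIs; the fibroblast-like row of Megf10 holds stars in 4 of 5 comparisons, and Lrp1 holds none.

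Mertk, the main TAM receptor of resting phagocytes, was carried by myeloid nuclei, which held 83.8% of its 369198 UMIs. In microglia-like nuclei it measured 2519, 1576 and 2386 CPM at 7 dpi and 1855, 1812 and 2518 CPM at 21 dpi in Ctrl, ADWA11 and Tgfbr2-cKO. In macrophage-like nuclei the same libraries gave 1856, 2641 and 1711 CPM and 2224, 2764 and 2368 CPM. The 2 phagocyte classes thus overlapped, and no comparison of Mertk in either was past 2-fold, with log2 ratios between −0.68 and 0.51. After thinning each nucleus to 1000 UMIs, 84.6% of microglia-like nuclei in Ctrl at 7 dpi had a Mertk UMI, against 8.98% of T cell-like nuclei.

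Mertk in astrocyte-like nuclei differed with fibroblast Tgfbr2 deletion. At 7 dpi it measured 354 CPM (322 to 388) in Ctrl, 374 CPM in ADWA11 and 1016 CPM (975 to 1058) in Tgfbr2-cKO. At 21 dpi it measured 347 CPM (334 to 360), 379 CPM and 796 CPM (776 to 816) in the same order. Both Tgfbr2-cKO libraries were above the other 4, whose values lay within 347 to 379 CPM. The T cell-like level was 224, 390 and 79.0 CPM at 7 dpi and 350, 525 and 164 CPM at 21 dpi, so Mertk in astrocyte-like nuclei exceeded it in Ctrl at 7 dpi and in both Tgfbr2-cKO libraries, and did not exceed it in Ctrl at 21 dpi or in ADWA11. The log2 ratio of Tgfbr2-cKO over Ctrl was 1.52 (1.38 to 1.67) at 7 dpi and 1.20 (1.13 to 1.26) at 21 dpi.

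The female and male nuclei of a library came from different mice and can be told apart by Xist and Y-linked UMIs. At 7 dpi, Mertk in astrocyte-like nuclei went from 307 to 1195 CPM in the female and from 364 to 542 CPM in the male mouse, which was not past 2-fold. At 21 dpi, it went from 328 to 774 CPM in the female and from 222 to 757 CPM in the male mouse. The share of thinned astrocyte-like nuclei with a Mertk UMI at 7 dpi was 19.8% (Ctrl) and 50.4% (Tgfbr2-cKO), with 23.1% and 42.9% at 21 dpi. The T cell-like shares in these libraries were 8.98%, 8%, 10.1% and 5.37%. Without thinning, the astrocyte-like shares were 59.6%, 79.9%, 56.8% and 83.5%.

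Most other astrocyte genes listed as markers were higher in the same nuclei. Aqp4 was lower in Tgfbr2-cKO than in Ctrl, at 380 against 641 CPM at 7 dpi and 579 against 741 CPM at 21 dpi. The 8 astrocyte markers at 7 dpi summed to 4086 CPM (Ctrl) and 16283 CPM (Tgfbr2-cKO), with 6137 and 12715 CPM at 21 dpi, with the glutamate transporter gene Slc1a2 going from 561 to 5909 CPM and from 1421 to 4610 CPM. The 8 neuron markers went from 66.6 to 344 CPM at 7 dpi and from 53.2 to 141 CPM at 21 dpi in these nuclei. The 12 microglia markers stood at 383 and 302 CPM at 7 dpi and at 316 and 300 CPM at 21 dpi. Mertk moved together with most of the astrocyte markers, but not with Aqp4. The part of the astrocyte markers and of the neuron markers in the result was not tested.

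Axl, the TAM receptor linked to inflammation and interferon, had fewer UMIs (30450) and 64.7% of them lay in myeloid nuclei. In microglia-like nuclei of Ctrl it measured 92.5 CPM (86.6 to 98.7) at 7 dpi and 193 CPM (182 to 205) at 21 dpi, a log2 ratio of 1.06 (0.93 to 1.19). Tgfbr2-cKO gave 105 and 147 CPM at the same times, and the few ADWA11 nuclei gave 27.4 CPM from 14 UMIs and 107 CPM from 11 UMIs. The first was past 2-fold below Ctrl (log2 ratio −1.76, −2.63 to −1.0), but was near it (0.053) when the myeloid nuclei were clustered at a resolution of 0.5. The rise in Ctrl was 68.8 to 184 CPM in the female and 117 to 207 CPM in the male mouse, the latter not past 2-fold. With TMM scaling, which adjusts the class totals between libraries, the rise in the whole class was not past 2-fold either. The T cell-like level rose as well, from 14.2 to 47.5 CPM, and its part was not tested.

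In macrophage-like nuclei, Axl measured 102 CPM (Ctrl), 218 CPM (ADWA11) and 219 CPM (Tgfbr2-cKO) at 7 dpi, the last from 46 UMIs in 46 nuclei. At 21 dpi the order gave 186, 224 and 230 CPM. Ctrl at 7 dpi was thus the low library, with log2 ratios of 1.10 (0.84 to 1.37) for ADWA11 and 1.11 (0.59 to 1.61) for Tgfbr2-cKO. Within border macrophage-like nuclei, Axl was 58.5 CPM in Ctrl and 163 CPM in ADWA11 at 7 dpi (log2 ratio 1.48), and 134 CPM in Ctrl at 21 dpi. The 25 border macrophage-like nuclei of Tgfbr2-cKO at 7 dpi gave 76.2 CPM from 8 UMIs. Fabp4 Cd5l macrophage-like nuclei at 7 dpi went the other way, at 473 CPM in Ctrl (63 UMIs, 22 nuclei), 258 CPM in ADWA11 and 362 CPM in Tgfbr2-cKO (38 UMIs, 21 nuclei). For Tgfbr2-cKO neither subtype gave a 2-fold difference. The mix of subtypes differed between these libraries, and its part in the class ratios was not tested. When 3 unnamed myeloid sub-clusters were counted as macrophages, both differences at 7 dpi vanished (−0.10 and −0.12). Axl in astrocyte-like and fibroblast-like nuclei lay between 46.1 and 92.2 CPM, and no comparison there was past 2-fold.

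**Figure D2:**
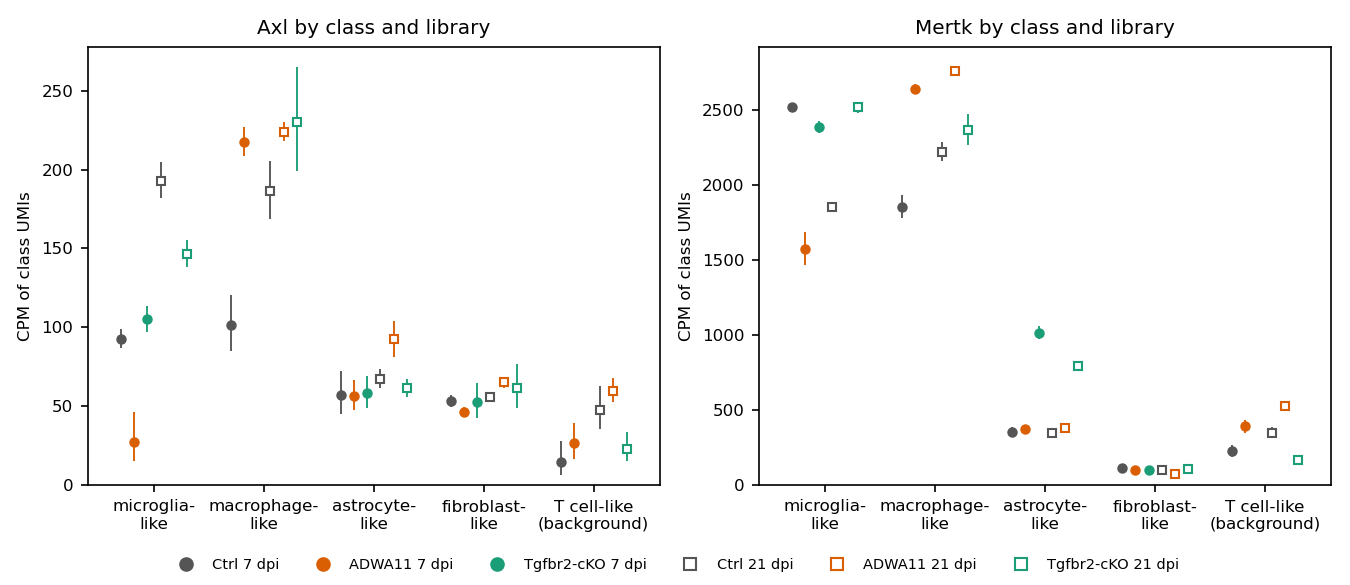
Axl and Mertk in CPM (linear axis from 0) in each class and library, with exact Poisson 95% intervals of the counts; filled circles are 7 dpi, open squares 21 dpi, and colours give Ctrl, ADWA11 and Tgfbr2-cKO where a group has at least 50 nuclei. Mertk in astrocyte-like nuclei stands at 1016 and 796 CPM in the Tgfbr2-cKO libraries and at 347 to 379 CPM in the others.

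Tyro3, the TAM receptor of neurons and oligodendrocytes, was nearly absent from phagocytes. Neurons held 72.6% of its 5311 UMIs and oligodendrocytes 13.6%, whereas the myeloid nuclei held 1.85%. In microglia-like nuclei it had 3, 0 and 35 UMIs at 7 dpi and 2, 0 and 13 at 21 dpi in Ctrl, ADWA11 and Tgfbr2-cKO. The ratio at 7 dpi, 0.304 against 5.81 CPM, was past 2-fold (log2 ratio 4.26, 2.59 to 6.60), in the library where neurons were 57.2% of nuclei and held 89.6% of the Tyro3 UMIs. In astrocyte-like nuclei of the same 2 libraries it went from 0.775 to 12.7 CPM (1 and 29 UMIs), while the summed neuron markers went from 66.6 to 344 CPM. The astrocyte-like ratio between Ctrl at 21 and 7 dpi, 4.74 against 0.775 CPM, rested on that same single UMI, with a log2 ratio of 2.61 (0.04 to 7.96). In fibroblast-like nuclei Tyro3 went from 3.33 to 1.36 CPM between 7 and 21 dpi in Ctrl (log2 ratio −1.29), near the T cell-like 5.33 and 0.95 CPM.

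Gas6, the bridge that binds all TAM receptors, was higher in macrophage-like than in fibroblast-like and astrocyte-like nuclei in 5 of 6 libraries; in ADWA11 at 21 dpi fibroblast-like nuclei held 147 CPM and macrophage-like nuclei 136 CPM. Macrophage-like nuclei measured 407 CPM (Ctrl), 172 CPM (ADWA11) and 205 CPM (Tgfbr2-cKO) at 7 dpi, whereas the values at 21 dpi were 241, 136 and 269 CPM. ADWA11 was the lowest library at both times, with a log2 ratio to Ctrl of −1.25 (−1.39 to −1.10) at 7 dpi and of −0.83 (−0.96 to −0.69) at 21 dpi, the second not past 2-fold. Both mice showed the direction at 7 dpi, at 450 and 206 CPM in the females and 401 and 132 CPM in the males. The macrophage subtypes differed too: border macrophage-like nuclei held 259 to 440 CPM and Fabp4 Cd5l macrophage-like nuclei 107 to 166 CPM, where at least 50 nuclei were present. Within border macrophage-like nuclei the ADWA11 value at 7 dpi was 259 CPM against 440 CPM in Ctrl (log2 ratio −0.76), short of 2-fold, and at 21 dpi it was 417 CPM against 382 CPM (0.12, −0.07 to 0.32). Counting the 3 unnamed myeloid sub-clusters as macrophages turned the ratio to 0.39.

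Gas6 was also higher at 21 than at 7 dpi in fibroblast-like and astrocyte-like nuclei. In fibroblast-like nuclei it measured 55.4 CPM (51.8 to 59.2) at 7 dpi and 126 CPM (122 to 131) at 21 dpi in Ctrl, a log2 ratio of 1.19 (1.08 to 1.30). The ADWA11 libraries gave 42 and 147 CPM and the Tgfbr2-cKO libraries 35.2 and 107 CPM, so the 3 libraries at 21 dpi stood above the 3 at 7 dpi. The Tgfbr2-cKO value at 21 dpi came from 152 nuclei. A sub-cluster of 315 nuclei in that library, left out for raised neuron markers, held Gas6 at 205 CPM (688 UMIs). The sub-clusters of these nuclei changed along with it: the one led by Spock3, Has2 and Igfbp3 went from 59.9% to 1.69% of fibroblast-like nuclei in Ctrl, and the one led by Slc9a2, Afap1l1 and Cdh1 from 2.72% to 53.6%. Within the first, Gas6 went from 56.0 to 107 CPM (log2 ratio 0.94), and within the second from 74.5 to 103 CPM (0.47, −0.04 to 1.03), neither past 2-fold. Within the sub-cluster led by Dcdc2a, Lama1 and Col4a6 it went from 22.0 to 44.8 CPM (1.03, 0.52 to 1.53), which was past 2-fold. Within the one led by Eln, which went from 1.25% to 29.6% of these nuclei, it was 154 CPM (35 UMIs, 23 nuclei) and 157 CPM. In astrocyte-like nuclei Ctrl gave 27.1 CPM from 35 UMIs and 90.8 CPM from 690 UMIs (log2 ratio 1.74, 1.25 to 2.28), and the others gave 36.7 and 42.6 CPM at 7 dpi and 89.0 and 92.8 CPM at 21 dpi. The T cell-like level was 28.4 and 68.4 CPM in Ctrl, and the astrocyte-like values overlapped it in the 3 libraries at 7 dpi and exceeded it in the 3 at 21 dpi. The fibroblast sub-cluster led by Sox6, Dlx6os1 and Caln1 held Gas6 at 140 CPM in Ctrl and 234 CPM in ADWA11 at 7 dpi and 235 and 745 CPM at 21 dpi; the last pair had a log2 ratio of 1.66 (1.45 to 1.88) from 281 and 67 nuclei.

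Pros1, the second TAM bridge and a blood anticoagulant, measured between 157 and 181 CPM in macrophage-like nuclei of the 6 libraries. With the 3 unnamed myeloid sub-clusters counted as macrophages, its log2 ratio for ADWA11 at 7 dpi was 1.48. Microglia-like nuclei held more, with 351 CPM (Ctrl) and 301 CPM (Tgfbr2-cKO) at 7 dpi, and 319 and 390 CPM in the later pair. The 23 microglia-like nuclei of ADWA11 at 21 dpi gave 697 CPM from 72 UMIs for Pros1 and 378 CPM from 39 UMIs for Gas6, both past 2-fold (log2 ratio 1.13 each). Without the 5 nuclei that held most UMIs these ratios were −0.29 and −0.19, but that step removes 5 of 23 nuclei in ADWA11 and 5 of 1132 in Ctrl and lowers the ratio by its construction. In fibroblast-like nuclei Pros1 measured 113 CPM (Ctrl), 138 CPM (ADWA11) and 184 CPM (Tgfbr2-cKO) at 7 dpi, whereas the values at 21 dpi were 71.9, 86.4 and 124 CPM. Tgfbr2-cKO was the highest library at each time, with log2 ratios of 0.71 (0.54 to 0.89) and 0.78 (0.54 to 1.02), which did not reach 2-fold. The Tgfbr2-cKO value at 21 dpi came from 152 nuclei. A sub-cluster of 315 nuclei in that library, left out for raised neuron markers, held Pros1 at 161 CPM (541 UMIs). The ratio at 21 dpi therefore depends on leaving it out. An unnamed myeloid sub-cluster led by Cfap299, Dlc1 and Lama3 had the highest Pros1 of the myeloid groups. Its level was 651 CPM in Ctrl (226 UMIs) and 579 CPM in ADWA11 at 7 dpi, and 587 and 732 CPM at 21 dpi. This sub-cluster held 50.7% of the Pros1 UMIs of the ADWA11 library at 7 dpi, where it had 2569 nuclei against 66 in Ctrl.

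**Figure D3:**
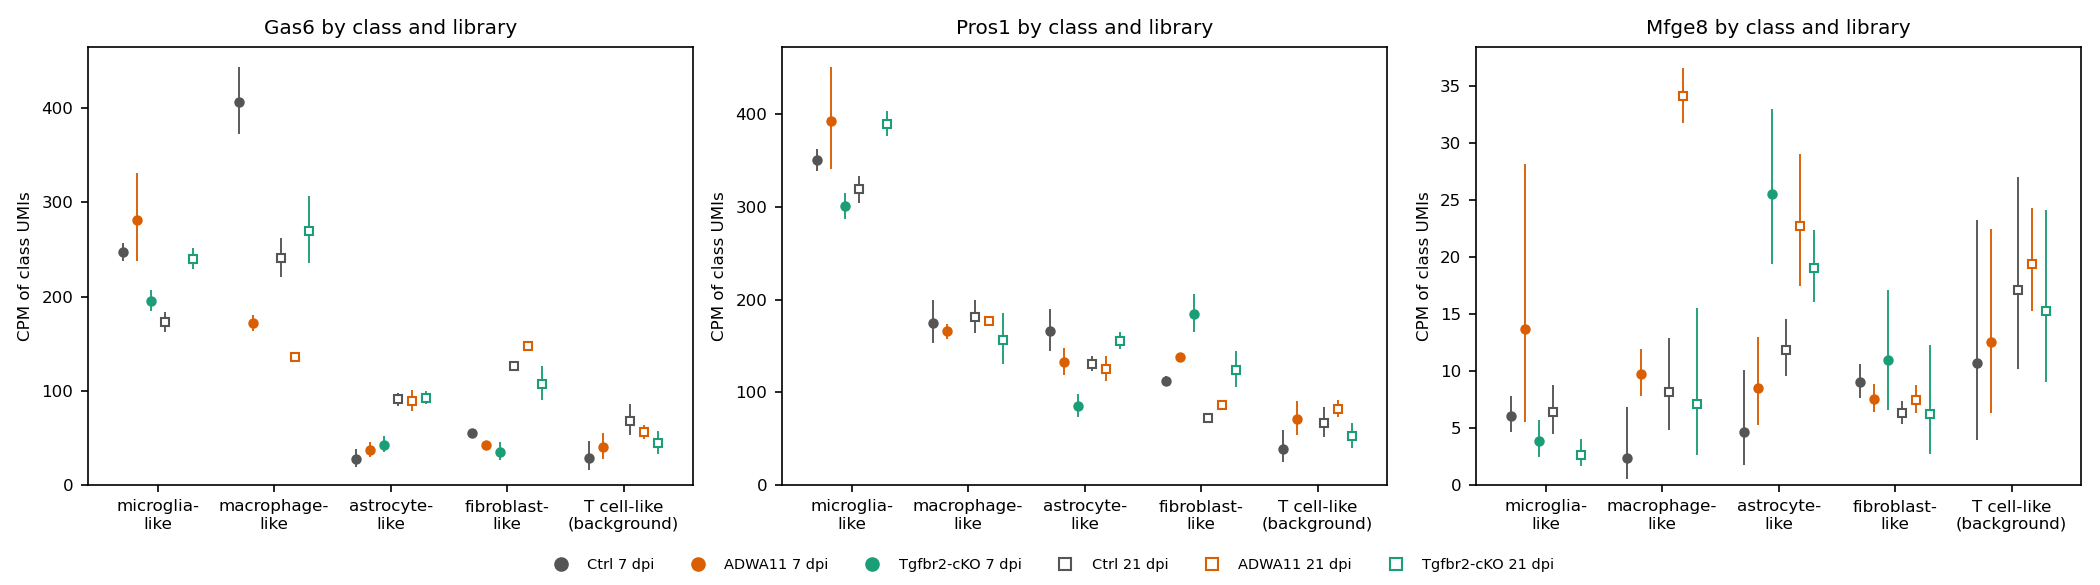
Gas6, Pros1 and Mfge8 in CPM (linear axis from 0) in each class and library, with exact Poisson 95% intervals of the counts; filled circles are 7 dpi and open squares 21 dpi, for groups of at least 50 nuclei. Gas6 in fibroblast-like nuclei lies between 35.2 and 55.4 CPM at 7 dpi and between 107 and 147 CPM at 21 dpi.

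Mfge8, the bridge to integrins, was low, with 5098 UMIs in total, and in most classes it lay within the T cell-like range of 10.7 to 19.4 CPM or below it. In macrophage-like nuclei it had 3, 93 and 1 UMIs at 7 dpi (2.34, 9.71 and 4.77 CPM) and 18, 762 and 6 UMIs at 21 dpi (8.17, 34.1 and 7.12 CPM) in Ctrl, ADWA11 and Tgfbr2-cKO. The ADWA11 library at 21 dpi stood apart from the other 5, and was the only 1 of the 6 above its T cell-like level (19.4 CPM). Its log2 ratio to Ctrl was 2.06 (1.39 to 2.83). Both mice showed it, at 37.2 CPM in the female and 33.6 CPM in the male against 7.21 and 8.60 CPM in Ctrl. The ratios at 7 dpi (2.05, 0.46 to 4.35) and between Ctrl at 21 and 7 dpi (1.80, 0.02 to 4.21) rested on 3 UMIs in Ctrl at 7 dpi, at levels under the T cell-like one. The first was −0.092 with the 3 unnamed myeloid sub-clusters counted as macrophages.

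The same direction was seen in several myeloid groups at 21 dpi. In Fabp4 Cd5l macrophage-like nuclei, Mfge8 went from 10.4 CPM in Ctrl to 36.6 CPM in ADWA11 (log2 ratio 1.81). In the large unnamed myeloid sub-cluster led by Slc9b2, Dach1 and Myo1d it went from 10.7 to 46.2 CPM (2.11, 1.47 to 2.76). Border macrophage-like nuclei, at 3.91 and 6.13 CPM, had 3 and 11 UMIs and gave no difference at this depth. The highest Mfge8 of the myeloid nuclei was in a sub-cluster led by Mmp12, a macrophage elastase gene, at 94.0 CPM in Ctrl and 150 CPM in ADWA11 at 21 dpi (log2 ratio 0.67, 0.32 to 1.04). In astrocyte-like nuclei Mfge8 overlapped the T cell-like level in 6 of 6 libraries, and its log2 ratios past 2-fold were 1.35 between Ctrl at 21 and 7 dpi and 2.46 for Tgfbr2-cKO at 7 dpi. The T cell-like level of that Tgfbr2-cKO library rested on 1 UMI in 28 nuclei. In microglia-like nuclei it lay at 2.62 to 29.1 CPM, with intervals that overlapped the T cell-like one in 4 libraries and lay below it in 2, and a log2 ratio of −1.28 for Tgfbr2-cKO at 21 dpi that was 0.69 in male nuclei only.

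The unnamed sub-cluster led by Slc9b2, Dach1 and Myo1d was about as large as the microglia-like class in Ctrl, with 1675 nuclei at 7 dpi and 1046 at 21 dpi, and was compared on its own. None of the members tested there was past 2-fold between Ctrl at 21 and 7 dpi (0 of 8, 11.4% of all genes), or between Tgfbr2-cKO and Ctrl at 7 dpi (0 of 7, 8.2%) and 21 dpi (0 of 7, 12.2%). With ADWA11, 1 of 8 was past 2-fold at 7 dpi (9.66%), Megf10 from 18 to 2 UMIs, and 2 of 7 at 21 dpi (11.4%), Mfge8 and Stab1. Mertk there measured 1799, 1945 and 1824 CPM at 7 dpi and 1782, 1837 and 2980 CPM at 21 dpi; the last, in Tgfbr2-cKO, was the high value, with a log2 ratio of 0.74 (0.70 to 0.79).

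Stab1, which binds phosphatidylserine and is a marker of border and other tissue macrophages, differed with time. In microglia-like nuclei it measured 1083 CPM (Ctrl), 751 CPM (ADWA11) and 639 CPM (Tgfbr2-cKO) at 7 dpi, whereas the values at 21 dpi were 315, 320 and 616 CPM. Ctrl fell most of the 3, with a log2 ratio between 21 and 7 dpi of −1.78 (−1.85 to −1.71), from 1124 to 305 CPM in the female and from 1029.9 to 294 CPM in the male mouse. Tgfbr2-cKO was nearly level between the times and stood above Ctrl at 21 dpi, by a log2 ratio of 0.97 (0.89 to 1.04) that just missed 2-fold. The T cell-like level in Ctrl also went from 235 to 117 CPM.

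Macrophage-like nuclei held more Stab1 than microglia-like nuclei in each library, at 2280, 1141 and 2045 CPM at 7 dpi and 821, 441 and 1113 CPM at 21 dpi. The log2 ratio between Ctrl at 21 and 7 dpi was −1.47 (−1.56 to −1.39), and ADWA11 lay below Ctrl by −1.0 (−1.06 to −0.94) and −0.90 (−0.97 to −0.82), neither past 2-fold. The macrophage subtypes differed in level. Border macrophage-like nuclei measured 2468 and 1643 CPM in Ctrl and ADWA11 at 7 dpi and 1657 and 1931 CPM at 21 dpi, while Fabp4 Cd5l macrophage-like nuclei measured 375 and 311 CPM at 21 dpi. Within border macrophage-like nuclei the time difference in Ctrl was −0.57 (−0.67 to −0.48), and the ADWA11 difference was −0.59 at 7 dpi and 0.22 at 21 dpi. In the sub-cluster led by Slc9b2, Dach1 and Myo1d, Stab1 went from 598 to 214 CPM with ADWA11 at 21 dpi (log2 ratio −1.48).

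**Figure D4:**
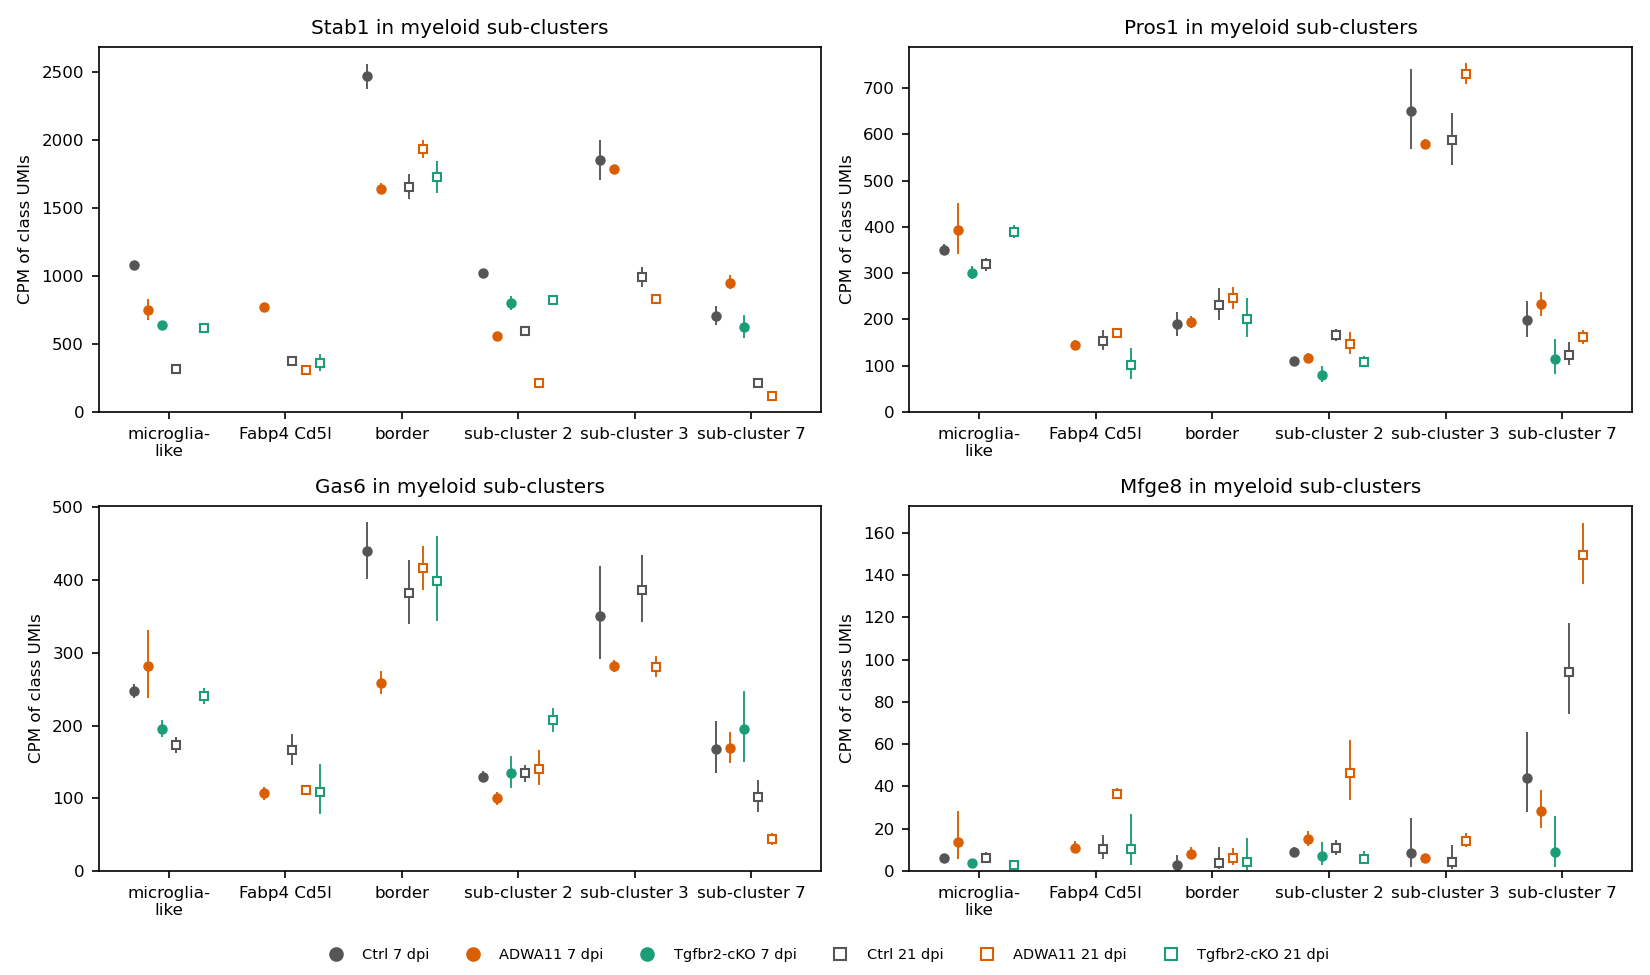
Stab1, Pros1, Gas6 and Mfge8 in CPM (linear axis from 0) in microglia-like, Fabp4 Cd5l and border macrophage-like nuclei and in unnamed myeloid sub-clusters 2, 3 and 7, led by Slc9b2, Cfap299 and Mmp12; points are libraries with at least 50 nuclei and bars are exact Poisson 95% intervals. At 21 dpi Stab1 lies at 1657 and 1931 CPM in border and at 375 and 311 CPM in Fabp4 Cd5l macrophage-like nuclei of Ctrl and ADWA11, and Mfge8 is highest in sub-cluster 7, at 94.0 and 150 CPM in Ctrl and ADWA11 at 21 dpi.

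Stab1 in astrocyte-like nuclei measured 148, 117 and 22.9 CPM at 7 dpi and 56.1, 59.1 and 32.8 CPM at 21 dpi, and in fibroblast-like nuclei 46.4, 44.9 and 10.4 CPM and 12.4, 11.4 and 7.00 CPM. These lay below the T cell-like values of the same libraries, 235, 236 and 39.5 CPM and 117, 106 and 67.8 CPM, in 5 of 6 libraries in each class. They were past 2-fold between Ctrl at 21 and 7 dpi (−1.40 and −1.90) and for Tgfbr2-cKO at 7 dpi (−2.69 and −2.16). The T cell-like level was lower in the same comparisons, resting on 3 UMIs in Tgfbr2-cKO at 7 dpi, and its part in these 4 differences was not tested.

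Megf10, the astrocyte engulfment receptor, gave the widest differences among the members that were above the T cell-like level. It had 11338 UMIs, and T cell-like nuclei held at most 3.80 CPM. In Ctrl at 7 dpi fibroblast-like nuclei held 73.1% of its UMIs, and at 21 dpi astrocyte-like nuclei held 63.5% and fibroblast-like nuclei 18.4%. In astrocyte-like nuclei Megf10 measured 96.1, 104 and 188 CPM at 7 dpi and 163, 160 and 259 CPM at 21 dpi in Ctrl, ADWA11 and Tgfbr2-cKO. Tgfbr2-cKO was the high library at each time, as for Mertk, but no astrocyte-like comparison was past 2-fold, with a log2 ratio of 0.97 at 7 dpi and 0.67 at 21 dpi. Oligodendrocyte-like nuclei held 156 to 303 CPM.

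In fibroblast-like nuclei Megf10 measured 86.3 CPM (1348 UMIs) in Ctrl, 17.8 CPM (361 UMIs) in ADWA11 and 81.3 CPM (141 UMIs) in Tgfbr2-cKO at 7 dpi. At 21 dpi it measured 13.5 CPM (358 UMIs), 2.54 CPM (50 UMIs) and 80.1 CPM (103 UMIs). ADWA11 was the lowest library at each time. The log2 ratio between Ctrl at 21 and 7 dpi was −2.68 (−2.85 to −2.51). ADWA11 over Ctrl gave −2.28 (−2.45 to −2.11) at 7 dpi. At 21 dpi ADWA11 gave −2.41 (−2.87 to −1.98), and Tgfbr2-cKO over Ctrl gave 2.57 (2.24 to 2.89) at 21 dpi. At 7 dpi the class levels of Tgfbr2-cKO and Ctrl differed by −0.09 on the log2 scale (−0.35 to 0.16). Within the sub-cluster led by Spock3, given below, Tgfbr2-cKO was lower past 2-fold.

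Both mice of each pool showed the class differences past 2-fold. Megf10 in fibroblast-like nuclei at 7 dpi was 98.7 and 13.7 CPM in the female and 83.6 and 23.7 CPM in the male mouse of Ctrl and ADWA11. At 21 dpi, the female mice gave 16.1, 2.18 and 82.3 CPM and the male mice 8.81, 1.91 and 86.8 CPM in Ctrl, ADWA11 and Tgfbr2-cKO. The value for ADWA11 at 21 dpi rested on 14 and 22 UMIs.

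The fibroblast-like nuclei fell into sub-clusters with very different Megf10. A sub-cluster led by Slc9a2, Afap1l1 and Cdh1 held 53.6% of the fibroblast-like nuclei of Ctrl at 21 dpi and 90.6% of those of ADWA11 at 21 dpi, with 1.42 and 0.606 CPM. A sub-cluster led by Spock3, Has2 and Igfbp3 held 59.9% and 62.8% of those of Ctrl and ADWA11 at 7 dpi, with 66.1 and 3.75 CPM, a log2 ratio of −4.14 (−4.60 to −3.71). Tgfbr2-cKO had 22.2 CPM there at 7 dpi (19 UMIs, 124 nuclei), a log2 ratio to Ctrl of −1.57 (−2.31 to −0.92), past 2-fold. A sub-cluster led by Dcdc2a, Lama1 and Col4a6 had the highest levels, at 182, 74.5 and 169 CPM at 7 dpi and 120, 40.0 and 191 CPM at 21 dpi in Ctrl, ADWA11 and Tgfbr2-cKO. At 7 dpi it made up 24.6% of fibroblast-like nuclei in Ctrl and 44.4% in Tgfbr2-cKO, whose log2 ratio there was −0.11 (−0.40 to 0.18). Within it ADWA11 was again lower than Ctrl, by −1.29 (−1.49 to −1.09) and −1.58 (−2.19 to −1.02), so the ADWA11 difference was present within the Spock3-led sub-cluster at 7 dpi and within this one at both times. A sub-cluster led by Eln held 29.6% of fibroblast-like nuclei in Ctrl and 1.01% in ADWA11 at 21 dpi, with 162 and 3 Megf10 UMIs at 19.3 and 16.3 CPM, and no difference could be seen there at this depth. The sub-cluster led by Spock3 had 10 and 4 UMIs in Ctrl and ADWA11 at 21 dpi, at 18.2 and 45.2 CPM. Its difference with time in Ctrl was −1.86 (−2.93 to −0.97), which was past 2-fold. Within the sub-cluster led by Dcdc2a the difference with time in Ctrl was −0.60 (−0.86 to −0.35), short of 2-fold. That of Tgfbr2-cKO at 21 dpi was 0.67 (0.29 to 1.05), also short of 2-fold. The sub-cluster led by Dcdc2a made up 6.53% of fibroblast-like nuclei in Ctrl and 49.3% in Tgfbr2-cKO at 21 dpi, and these shares differed along with the class level. A further sub-cluster of 315 nuclei in Tgfbr2-cKO at 21 dpi, led by Stxbp6 and Mmp3, was left out for its raised neuron markers; with it kept, the log2 ratio of Tgfbr2-cKO was 0.90 and no longer past 2-fold. It held Megf10 at 4.18 CPM (14 UMIs), so the near-equal Tgfbr2-cKO levels at 7 and 21 dpi also depend on leaving it out.

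**Figure D5:**
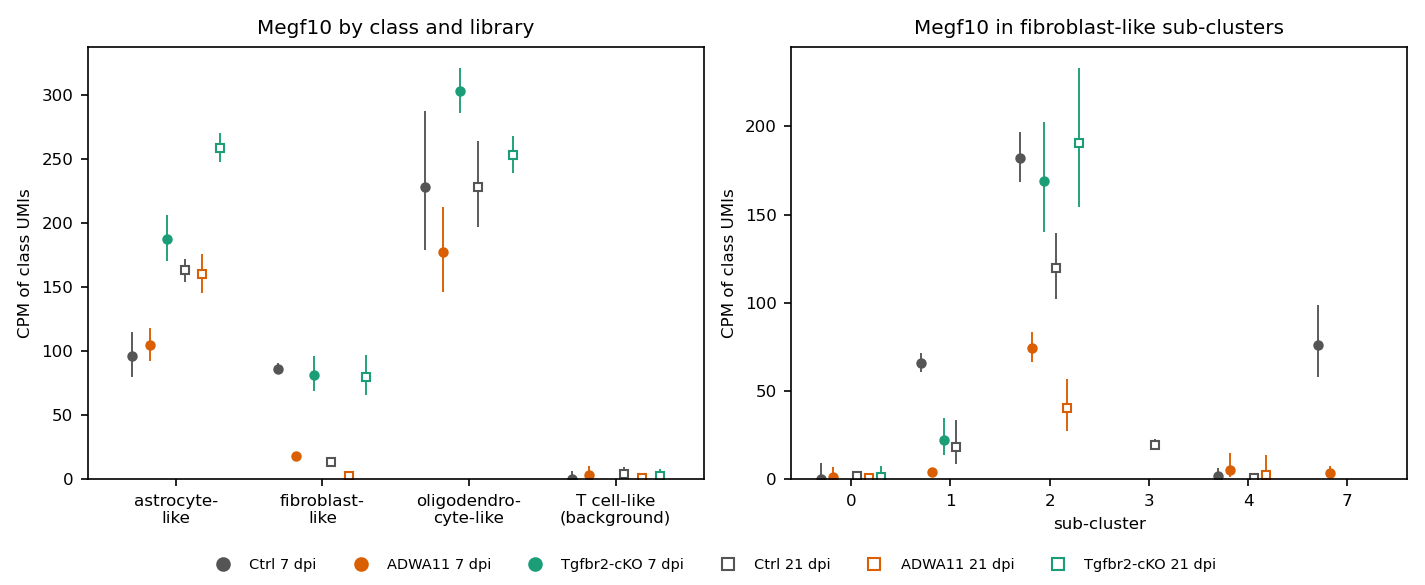
Megf10 in CPM (linear axis from 0) by class (left) and by fibroblast sub-cluster (right) in each library, with exact Poisson 95% intervals of the counts; filled circles are 7 dpi and open squares 21 dpi, and only groups of at least 50 nuclei are drawn. Sub-clusters 0, 1 and 2 are those led by Slc9a2, Spock3 and Dcdc2a. In fibroblast-like nuclei ADWA11 lies at 17.8 and 2.54 CPM, below Ctrl at 86.3 and 13.5 CPM.

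Lrp1, the scavenger receptor, had no ratio past 2-fold in any of the 4 classes and 5 comparisons. Microglia-like nuclei measured 764, 501 and 751 CPM at 7 dpi and 699, 417 and 755 CPM at 21 dpi, fibroblast-like nuclei 449 to 599 CPM, and astrocyte-like nuclei 160 to 331 CPM. Macrophage-like nuclei measured 345 CPM (Ctrl), 598 CPM (ADWA11) and 553 CPM (Tgfbr2-cKO) at 7 dpi, whereas the values at 21 dpi were 554 to 723 CPM. Ctrl at 7 dpi was the low library there, as for Axl, by log2 ratios of 0.79 (0.65 to 0.93) for ADWA11 and 0.68 (0.37 to 0.98) for Tgfbr2-cKO. At 7 dpi border macrophage-like nuclei held 332, 421 and 400 CPM in Ctrl, ADWA11 and Tgfbr2-cKO. Fabp4 Cd5l macrophage-like nuclei held 458 (61 UMIs), 729 and 706 CPM (74 UMIs) in the same order. The mix of these subtypes differed between the libraries, and its part in the class ratios was not tested.

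Timd4, a phosphatidylserine receptor of resident macrophages, had only 784 UMIs. Dendritic-like nuclei held it at 80.4, 40.0 and 72.7 CPM at 7 dpi and 58.0, 35.6 and 25.5 CPM at 21 dpi, and border macrophage-like nuclei at 1.47 to 31.3 CPM. The 23 microglia-like nuclei of ADWA11 at 21 dpi held it at 87.2 CPM (9 UMIs), against 0.344 CPM in Ctrl (2 UMIs), too few UMIs for a call. In macrophage-like nuclei it had 5 UMIs at 7 dpi and 26 at 21 dpi in Ctrl (3.91 and 11.8 CPM), a log2 ratio of 1.59 (0.19 to 3.33). The female nuclei of these libraries had 4 and 19 of the UMIs and the male nuclei 0 and 6. In this class its interval overlapped that of the T cell-like level in 6 of 6 libraries. In border macrophage-like nuclei of Ctrl it went from 5 to 24 UMIs, or from 4.36 to 31.3 CPM (log2 ratio 2.84, 1.42 to 4.59), with 5.70 CPM in T cell-like nuclei at 21 dpi. The unnamed sub-cluster led by Cfap299 of ADWA11 at 21 dpi held 197 of the 784 UMIs, at 35.7 against 9.68 CPM in Ctrl (log2 ratio 1.88, 0.81 to 3.22). Border macrophage-like nuclei at 21 dpi were lower in Tgfbr2-cKO, at 8.59 CPM from 4 UMIs (−1.86, −3.85 to −0.32), and held 16.7 CPM in ADWA11 (−0.91, −1.73 to −0.07). Dendritic-like nuclei were lower in ADWA11 at 7 dpi, by −1.03 (−1.62 to −0.46) within their main sub-cluster.

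The other genes of the pathway were followed in 6 lists of 67 genes in all: other receptors, engulfment machinery, other bridges, shedding and signal-off, exposure and find-me signals, and digestion with the lipid response. The engulfment machinery holds the Rac and adaptor proteins that close the phagocytic cup. In macrophage-like nuclei 11 of its 11 genes were tested in each comparison, and 1 was past 2-fold in the 5 comparisons together. Of all genes, 6.92% to 10.1% were past 2-fold in each of these comparisons. Its medians there lay between −0.13 and 0.05 on the log2 scale, beside −0.06 to 0.07 for all genes. Other bridges were higher at 21 than at 7 dpi in Ctrl in 2 of 8 tested in macrophage-like and 3 of 9 in astrocyte-like nuclei, with none lower, where 10.1% and 14.9% of all genes were past 2-fold in either direction. Complement C3, an opsonin, went from 1.55 CPM (2 UMIs) to 237 CPM (1802 UMIs) in astrocyte-like nuclei and from 0.576 to 15.8 CPM in fibroblast-like nuclei. In Tgfbr2-cKO astrocyte-like nuclei at 21 dpi, C3 stood at 65.3 CPM (log2 ratio −1.86) and the opsonin Ptx3 at 10.6 against 45.2 CPM, and 4 of 9 other bridges were lower, beside 11.2% of all genes past 2-fold in either direction. In macrophage-like nuclei over the same 5 comparisons, shedding and signal-off genes had 0 to 1 higher and 0 lower of 5 to 7 tested, exposure and find-me genes 0 to 1 higher and 0 to 2 lower of 6 to 11, and digestion and lipid response genes 0 to 1 higher and 0 to 1 lower of 13, beside 6.92% to 10.1% of all genes past 2-fold.

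The other receptors are given as single genes picked for large ratios, without a count over their list. Among them, Stab2, a close relative of Stab1, was opposite to it in macrophage-like nuclei. Stab2 went from 20.3 to 91.6 CPM between 7 and 21 dpi in Ctrl and was 84.3 CPM in ADWA11 at 7 dpi. Cd36, a scavenger receptor for lipids, went from 128 to 24.1 CPM with time in microglia-like nuclei of Ctrl (log2 ratio −2.41), and was 65.2 CPM in Tgfbr2-cKO against 387 CPM in Ctrl macrophage-like nuclei at 21 dpi. Anxa1, a bridge and signal of dying cells, went from 18.8 to 81.2 CPM in macrophage-like nuclei between 7 and 21 dpi. Fabp4 Cd5l macrophage-like nuclei numbered 22 and 296 in Ctrl at 7 and 21 dpi and 59 in Tgfbr2-cKO at 21 dpi. Border macrophage-like nuclei numbered 249, 206 and 87 in the same order. The part of this mix in the macrophage-like values of Stab2, Cd36 and Anxa1 was not tested. The list genes were not set beside the T cell-like level. In microglia-like nuclei of Tgfbr2-cKO at 7 dpi, Adgrb1 (15.3 against 1.82 CPM) and Xkr4 (45.9 against 5.56 CPM), both also neuronal genes, were higher in the library rich in neurons. In fibroblast-like nuclei C3 was 109 CPM in ADWA11 against 15.8 CPM in Ctrl at 21 dpi, and Pparg, a nuclear receptor of the lipid response, 15.6 against 4.15 CPM.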

How the data were processed

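Nuclei of 6 lesion pools were profiled with droplet single-nucleus RNA sequencing (10x 3′ v3.1). The authors deposited UMI counts per gene and barcode, made with Cell Ranger 7.2.0 on mm10 per the file headers. The submitters' processing notes also name 7.1.0. Barcodes in the lowest or highest 2.5% of UMIs or genes, or the highest 2.5% of mitochondrial share, were removed per library. Doublets were called against simulated ones, and clusters made mostly of called doublets were left out. Nuclei were clustered with Seurat 5.3.0 and sctransform 0.4.2 in R 4.3.3 (30 components, resolution 0.5 with sub-clustering at 0.25 and 0.2). Classes were named from marker lists, and 3 myeloid sub-clusters and the whole clusters 4, 8 and 21 stayed unnamed. In Ctrl at 21 dpi these whole clusters made up 17.2%, 5.89% and 1.66% of nuclei. They lie outside the 4 classes, and clusters 4 and 8 were counted as fibroblasts only in alternatives. The classes were rebuilt here, so differences from the study may come from the names. Sums, ratios and intervals were computed in Python 3.11.15 with scipy 1.17.1, with a floor of 3 counts, and were tested on simulated data. With 1 library per group no test between groups was made, and no model over day and condition was fitted.

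The members and gene lists were chosen with earlier results of these data known. The text names the 10 members and, per class and comparison, at most 2 list genes with the largest ratio among those past 2-fold with at least 50 UMIs and the same direction in female and male nuclei; not all of these are printed. Genes most like Axl, Mertk and Tyro3 were taken by Spearman correlation. The alternatives were 10 planned and 5 added after the data were seen. TMM factors came from edgeR 4.0.16. With TMM scaling, Axl over time and Gas6 and Pros1 with ADWA11 at 21 dpi were no longer past 2-fold in microglia-like nuclei. The same held for Mfge8 over time in macrophage-like nuclei. Member genes that overlap another gene on the opposite strand are Mertk, Gas6, Lrp1 and Stab1.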

Additional observations from a re-analysis of the deposited data

How the results depend on the processing

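No paired analysis was made between groups, which had 1 library each. The same conditions were present at both times, but the days were not compared with condition as a block. The number of pairs of member and class past 2-fold in Tgfbr2-cKO at 21 dpi was 3, and was 6 in female nuclei only and 5 without the 5 nuclei with most UMIs. With ADWA11 at 7 dpi it was 5, and 2 after log-normalised clustering. With ADWA11 at 21 dpi it was 4, and was 7 in male nuclei only, 7 after log-normalised clustering and 2 at a myeloid resolution of 0.5. Shares of all genes past 2-fold under these alternatives are not given. A change in these counts therefore cannot be told from a change over all genes. Directions changed for Mfge8 in microglia-like nuclei of Tgfbr2-cKO at 21 dpi (0.69 in male nuclei only) and Axl in microglia-like nuclei with ADWA11 at 7 dpi (0.053 at a myeloid resolution of 0.5). They changed for Gas6 (−0.20 after log-normalised clustering, −0.19 without the 5 nuclei with most UMIs) and Pros1 (−1.07 and −0.29) in microglia-like nuclei with ADWA11 at 21 dpi. In macrophage-like nuclei they changed for Axl in Tgfbr2-cKO at 7 dpi (−0.64 after log-normalised clustering), and with the unnamed myeloid sub-clusters 2, 3 and 7 counted as macrophages for Axl in Tgfbr2-cKO (−0.12) and, with ADWA11 at 7 dpi, for Axl (−0.10), Gas6 (0.39) and Mfge8 (−0.092). The cause was not tested. The log2 ratios of Megf10 in fibroblast-like nuclei with ADWA11 at both times, of Mfge8 in macrophage-like nuclei with ADWA11 at 21 dpi, of Mertk in astrocyte-like nuclei of Tgfbr2-cKO at 21 dpi and of Stab1 in microglia-like nuclei over time stayed past 2-fold in the same direction under the 15 alternatives. Class totals of 103228 to 511342 UMIs in the ADWA11 microglia-like nuclei limited the values there.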

Other observations

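Several members were carried by cell types outside the 4 classes. Tyro3 measured 59.0 to 101 CPM in oligodendrocyte-like nuclei and 10.1 to 34.0 CPM in neuron-like nuclei. Mfge8 measured 44.7 to 131 CPM in mural-like nuclei, the smooth muscle cells and pericytes of vessels, above the 10.7 to 19.4 CPM of T cell-like nuclei. In dendritic-like nuclei Axl measured 246, 153 and 138 CPM at 7 dpi and 234, 87.9 and 156 CPM at 21 dpi in Ctrl, ADWA11 and Tgfbr2-cKO. Neuron-like nuclei held 67.9% of the Gas6 UMIs of Tgfbr2-cKO at 7 dpi, at 43.1 CPM.

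Across 65 points of class and library, which share libraries and depth, the genes whose level was most like that of Axl were Dnajb14, Alpk1 and Myom1 (Spearman rho 0.83, 0.80 and 0.80). For Mertk they were Sirpa, Osbpl11 and Eepd1 (0.87, 0.86 and 0.83), and for Tyro3 they were Lrrc4b, Rnf112 and Cdh10 (0.84, 0.83 and 0.82). These are descriptions over 16614 genes.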
